A study of Mus musculus with 8 samples.

Results

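The pentose phosphate pathway enzymes are described here as 9 genes of the 56748 listed for 8 RNA sequencing libraries of 32D cells, a mouse myeloblast-like bone marrow line that needs interleukin-3 (IL-3) to grow. The members were taken by gene symbol and not by their values. They are the oxidative branch (G6pdx, Pgls and Pgd), the non-oxidative branch (Rpia, Rpe, Taldo1 and Tkt) and the phosphoribosyl pyrophosphate (PRPP) synthetases Prps1 and Prps2. All cells carried introduced murine Jak2, either wild type (Jak2WT) or with the V617F substitution found in myeloproliferative neoplasms (Jak2V617F). In each background, clones with intact glucose transporters (GLUT1/3 WT) were compared with clones in which CRISPR/Cas9 had been used against Slc2a1 and Slc2a3, the genes of GLUT1 and GLUT3 (GLUT1/3 dKO). Every library was 1 single-cell-derived clone, numbered 1 or 3, and each of the 4 groups had 2 clones, all kept for 24 h with 2 ng/ml IL-3, 10% fetal calf serum, 5 mM glucose and 1 mM L-glutamine in RPMI-1640 medium. With 2 clones a group, traits of a clone and effects of a genotype were separated only by the spread between clones, and an exact permutation test of 2 against 2 clones could not give a two-sided p below 0.333. The paper states that cells were diluted to single cells before editing. It lists the same Slc2a1 deletion size for the dKO clones of each background. Traits that the clones of a group share would not show in their spread and cannot be told apart from effects of the genotype.

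Glucose that has entered a cell and been phosphorylated can go down glycolysis or into the pentose phosphate pathway. The oxidative branch oxidizes it to ribulose phosphate and yields NADPH, the electron donor for lipid synthesis and for keeping glutathione reduced. The non-oxidative branch interconverts sugar phosphates in reversible steps, so that ribose phosphate can be made from glycolytic intermediates or returned to them. PRPP synthetases activate ribose phosphate to PRPP, the donor of the ribose part of purine, pyrimidine and NAD nucleotides. The first oxidative step is set mainly by the ratio of NADP to NADPH and PRPP synthetases by phosphate and nucleotides, so mRNA levels do not give the flux.

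Prps1 has a near-identical copy, Prps1l3, with which it shares some stretches of the read length of 150 bases, and a less similar paralog, Prps2. The first 150 coding bases of the 3 genes in GRCm39 are shown to compare them, 5′ to 3′ on the coding strand, with capitals at the bases that differ from Prps1. The coding sequence starts at base 139357491 of chromosome X for Prps1 (forward strand), at base 57285212 of chromosome 12 for Prps1l3 (forward strand) and at base 166165587 of chromosome X for Prps2 (reverse strand).
Prps1: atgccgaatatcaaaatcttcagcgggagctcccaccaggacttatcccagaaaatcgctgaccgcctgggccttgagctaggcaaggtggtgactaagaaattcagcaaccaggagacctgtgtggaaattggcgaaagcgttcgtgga
Prps1l3: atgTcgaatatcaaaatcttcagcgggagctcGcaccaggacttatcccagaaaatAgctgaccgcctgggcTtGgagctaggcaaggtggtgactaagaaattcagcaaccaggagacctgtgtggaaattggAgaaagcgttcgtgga
Prps2: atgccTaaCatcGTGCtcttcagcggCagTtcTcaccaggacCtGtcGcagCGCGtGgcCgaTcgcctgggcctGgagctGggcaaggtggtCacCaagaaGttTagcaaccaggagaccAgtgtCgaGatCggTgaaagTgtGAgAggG
In these stretches Prps1l3 differed from Prps1 at 6 bases and Prps2 at 35. Over the whole coding sequence of 954 bases, Prps1l3 was 96.9% identical to Prps1, with 30 differences, and Prps2 was 80.0% identical, with 191. Of the 1818 windows of 150 bases in the Prps1 transcript, 15 (0.8%) had an exact copy elsewhere in the genome, on chromosome 12. The share was 0.4% for Rpe and 0.5% for Prps2, and 0 windows had a copy for the other 6 members. How reads that matched more than 1 place were counted is not given in the sources used here.

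Reads on genes ranged from 16846011 to 48884329 per library. Each member had between 943 and 18887 reads in every library, so counting error was at most 3.26% of a value. Over all genes, the 2 clones of every group were farther apart than counting error, with a mean chi-square per gene of 8.02 to 35.2. Slc2a1 fell from a mean of 46.6 to 9.32 FPKM (fragments per kilobase of gene, scaled for library depth) in Jak2WT cells (limma adjusted p = 0.000872) and by 1.90 on the log2 scale in Jak2V617F cells (limma adjusted p = 0.000444). Slc2a3 fell from 182 to 36.0 FPKM in Jak2V617F cells (limma adjusted p = 0.0115), a call lost without Jak2V617F GLUT1/3 WT clone 1 (limma adjusted p = 0.0602) or dKO clone 3 (limma adjusted p = 0.0521) and without an expression filter (limma adjusted p = 0.0557). In Jak2WT cells it was 97.7 and 91.9 FPKM in the GLUT1/3 WT clones and 16.0 and 49.5 in the dKO clones, the higher value in clone 3 (limma adjusted p = 0.0612). Jak2 was at 218 to 258 FPKM in Jak2WT and 139 to 165 in Jak2V617F libraries. Of 9 myeloid markers, Mpo, Elane and Ctsg were at or below 0.203 FPKM and Cebpa was listed at 0 in every library, so the label myeloblast-like rests on Spi1, Il3ra, Csf2rb, Prtn3 and Ptprc. The summed level of 10 erythroid markers was 94.0 to 112 FPKM in Jak2WT clones with GLUT1/3 and 246 to 291 without, and 553 to 910 in Jak2V617F clones with GLUT1/3 and 2582 to 4679 without, mostly from globin genes. The defining markers Alas2 and Slc4a1 were at or below 0.312 FPKM in every library. Its ranges did not overlap between any of the 4 groups, and its part in the members' results was not tested. Where a library was left out, its group kept 1 clone, assumed to vary like the other groups, and calls over all genes mostly fell in comparisons with that group. On loss of GLUT1/3 in Jak2WT cells they fell from 901 higher and 716 lower to between 74 and 178 higher and 32 and 97 lower without a Jak2WT library. In Jak2V617F cells they fell from 1614 and 1919 to between 1086 and 1233 higher and 1002 and 1691 lower without a Jak2V617F library, and lost calls stand beside this. In bulk RNA, fewer cells of a type and less RNA per cell cannot be told apart.

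All 9 members were expressed in every library. Their order by mean FPKM, a scale per length of gene, over the 8 libraries was Taldo1 at 77.0, Prps1 at 67.7, Tkt at 51.6, G6pdx at 35.1, Prps2 at 29.5, Pgd at 26.8, Rpe at 26.6, Pgls at 13.4 and Rpia at 10.3. Taldo1 stood above 95.2% of the 11818 genes tested and Rpia above 59.3%. The highest library was 1.26 times the lowest for Pgls and 2.01 times for Prps2, the extremes of the set. After Prps2, the widest ranges were those of Rpia (1.82 times) and Prps1 (1.78 times), as the plot of FPKM by clone shows. In their spread over the libraries, Prps2, Prps1 and Rpia stood above 71.3%, 68.1% and 63.1% of the genes tested, and the other 6 members above 8.96% to 44.9%.

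**Figure D1:**
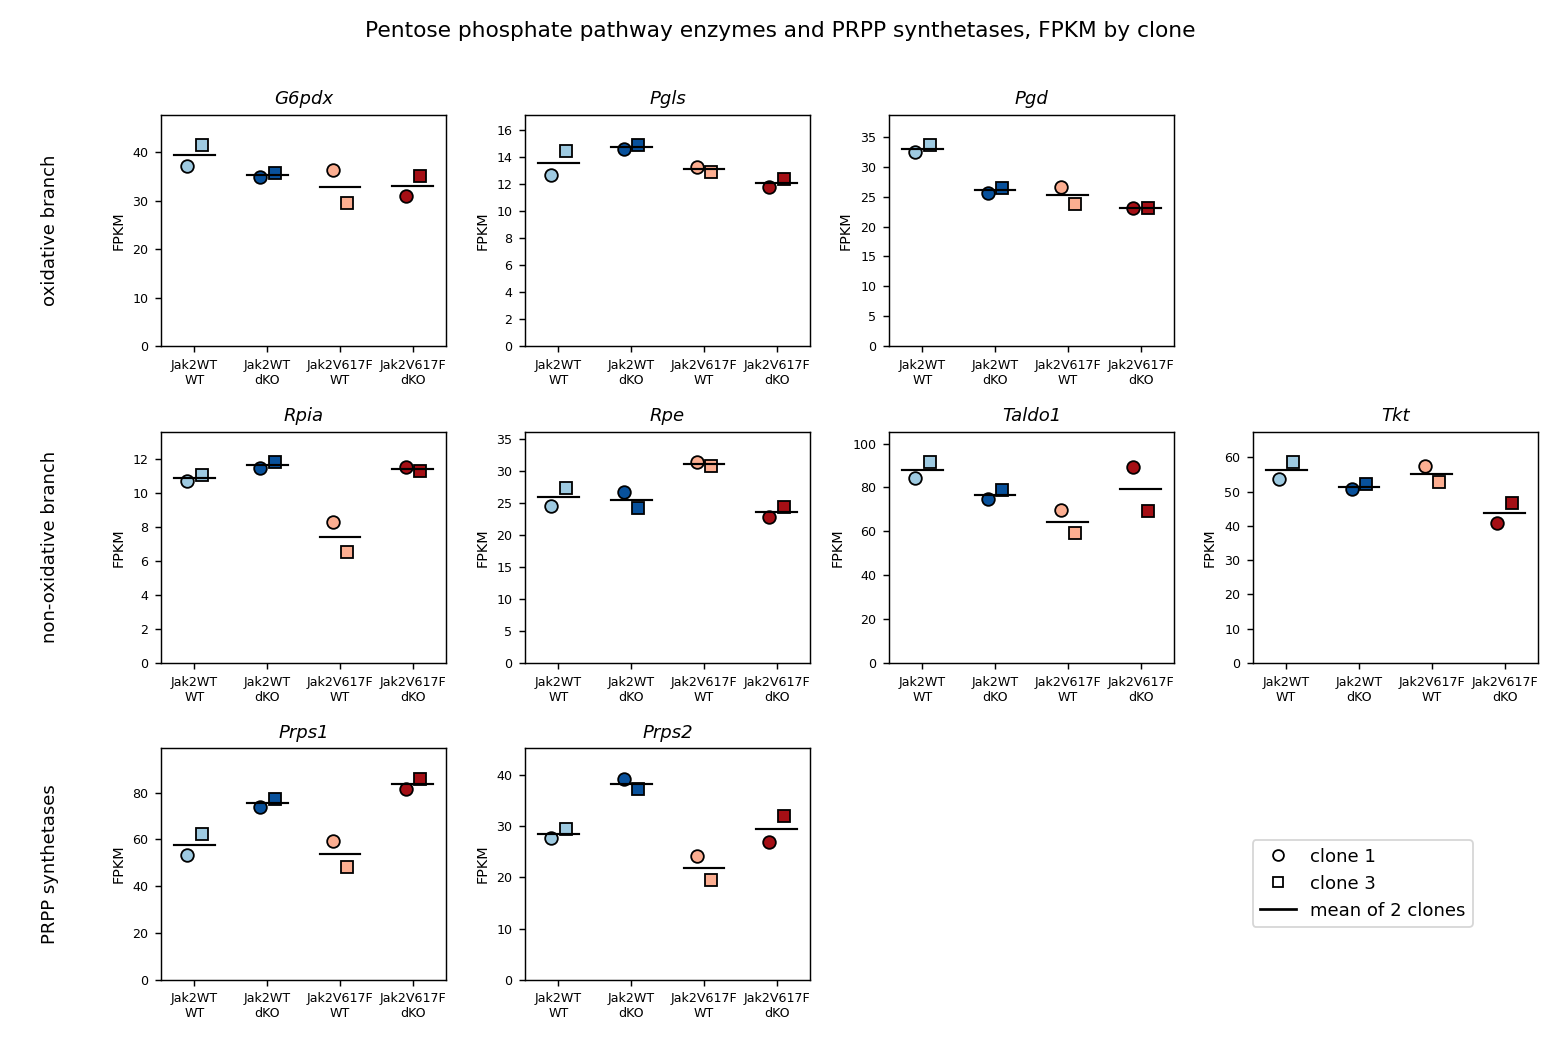
FPKM of the 9 members (vertical axis, from 0, a scale per panel) in the 4 groups (horizontal axis), with circles for clone 1, squares for clone 3 and bars for the mean of 2 clones. Both PRPP synthetases were higher in both dKO clones than in the GLUT1/3 WT clones of the same Jak2 background, and Rpia was lowest in the Jak2V617F GLUT1/3 WT clones.

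In the 4 comparisons of groups, limma called 0 oxidative genes higher, with 0 higher at an unadjusted p under 0.05 and 0 by limma-voom, and its calls were 2 lower values of Pgd. Over all genes tested, 7.62% and 13.7% were called higher on loss of GLUT1/3 in Jak2WT and Jak2V617F cells. For Jak2V617F against Jak2WT, 15.3% were called higher among GLUT1/3 WT clones and 7.12% among dKO clones. The 0 of 3 oxidative genes is therefore near the background. G6pdx (chromosome X, 73453089 to 73472800, GRCm39) encodes glucose-6-phosphate dehydrogenase, which commits glucose to the pathway. It was at 37.2 and 41.4 FPKM in the Jak2WT GLUT1/3 WT clones, 34.8 and 35.6 in the Jak2WT GLUT1/3 dKO clones, 36.2 and 29.5 in Jak2V617F GLUT1/3 WT clones and 30.9 and 35.1 in the Jak2V617F GLUT1/3 dKO clones. The Jak2WT GLUT1/3 WT clones were the highest, and the other groups overlapped each neighbour in the order of means. Loss of GLUT1/3 moved G6pdx by -0.15 (SE 0.118) in log2(FPKM + 1) in Jak2WT cells and by 0.01 (SE 0.118) in Jak2V617F cells. The 95% interval was -0.43 to 0.12 in the former and -0.27 to 0.29 in the latter, and neither change passed the test (limma adjusted p = 0.418 and 0.966).

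Pgls (chromosome 8, 72044820 to 72053736) encodes the lactonase of the next step. It was at 12.7 and 14.4 FPKM in Jak2WT GLUT1/3 WT clones, 14.6 and 14.9 in Jak2WT GLUT1/3 dKO, 13.3 and 12.9 in Jak2V617F GLUT1/3 WT and 11.8 and 12.4 in Jak2V617F GLUT1/3 dKO clones. The dKO clones lay above the GLUT1/3 WT clones in Jak2WT cells and below them in Jak2V617F cells, by 0.12 and -0.11 in log2(FPKM + 1) (SE 0.0838 for each), and neither difference nor their contrast passed the test (limma adjusted p = 0.391, 0.378 and 0.254).

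Pgd (chromosome 4, 149234448 to 149251228) encodes phosphogluconate dehydrogenase, the step that releases carbon dioxide. It was at 32.4 and 33.6 FPKM in Jak2WT GLUT1/3 WT clones, 25.7 and 26.5 in Jak2WT GLUT1/3 dKO clones, 26.6 and 23.8 in Jak2V617F GLUT1/3 WT clones and 23.1 in both Jak2V617F GLUT1/3 dKO clones. Both Jak2WT GLUT1/3 WT clones were above all 6 others, and those of Jak2WT GLUT1/3 dKO and Jak2V617F GLUT1/3 WT overlapped. Pgd fell by 0.33 (SE 0.0799) in log2(FPKM + 1) on loss of GLUT1/3 in Jak2WT cells (limma adjusted p = 0.0377), from 33.0 ± 0.86 to 26.1 ± 0.57 FPKM (mean ± SD, n = 2). The call was lost without any 1 of the 4 Jak2WT libraries (limma adjusted p = 0.125 to 0.194), while the difference was between -0.36 and -0.30 in these fits. It was lower in Jak2V617F than in Jak2WT GLUT1/3 WT clones (log2 difference -0.38, SE 0.0799, limma adjusted p = 0.0123), a call lost without Jak2WT GLUT1/3 WT clone 1 (limma adjusted p = 0.0592), without its clone 3 (limma adjusted p = 0.0872) or without Jak2V617F GLUT1/3 WT clone 3 (limma adjusted p = 0.052).

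The non-oxidative branch did not move as one: in Jak2V617F cells, loss of GLUT1/3 raised Rpia and lowered Rpe and Tkt. Rpia (chromosome 6, 70742704 to 70769216) encodes ribose-5-phosphate isomerase, which turns ribulose phosphate into ribose phosphate. It was at 10.7 and 11.1 FPKM in Jak2WT GLUT1/3 WT clones, 11.5 and 11.9 in Jak2WT GLUT1/3 dKO clones, 8.29 and 6.53 in Jak2V617F GLUT1/3 WT clones and 11.6 and 11.3 in Jak2V617F GLUT1/3 dKO clones. Both Jak2V617F GLUT1/3 WT clones stood below all others, and the dKO clones of the 2 backgrounds overlapped. Relative to Jak2WT, Rpia was lower (log2 difference -0.51, SE 0.106, limma adjusted p = 0.0116) among GLUT1/3 WT clones, a call lost without either Jak2WT GLUT1/3 WT clone (limma adjusted p = 0.0556 without clone 1 and 0.0730 without clone 3). It rose 1.54-fold in FPKM, by 0.57 (SE 0.106) in log2(FPKM + 1), on loss of GLUT1/3 in Jak2V617F cells (limma adjusted p = 0.00786). In Jak2WT cells the change was 0.09 (SE 0.106, limma adjusted p = 0.599), and the difference between backgrounds, 0.48 (SE 0.150), did not pass the test (limma adjusted p = 0.0826). It passed with libraries scaled to the same summed FPKM (0.65, limma adjusted p = 0.0211).

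Rpe (chromosome 1, 66739990 to 66758964) encodes the epimerase that makes xylulose phosphate, the other product of ribulose phosphate. It was at 24.5 and 27.4 FPKM in Jak2WT GLUT1/3 WT clones, 26.8 and 24.2 in Jak2WT GLUT1/3 dKO clones, 31.5 and 30.9 in Jak2V617F GLUT1/3 WT clones and 22.8 and 24.4 in Jak2V617F GLUT1/3 dKO clones. Here the Jak2V617F GLUT1/3 WT clones stood above all others, and neighbouring groups below them overlapped. Rpe fell by 0.39 (SE 0.0899) on the log2 scale on loss of GLUT1/3 in Jak2V617F cells (limma adjusted p = 0.0178) and was -0.02 (SE 0.0899, limma adjusted p = 0.885) in Jak2WT cells, with a contrast of -0.36 (SE 0.127, limma adjusted p = 0.110). The decrease lost its call without Jak2V617F GLUT1/3 WT clone 1 or 3 or Jak2V617F GLUT1/3 dKO clone 1 (limma adjusted p = 0.0704, 0.0535 and 0.0671). Rpia and Rpe, which share a substrate, had opposite signs in this comparison.

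Tkt (chromosome 14, 30270316 to 30296677) and Taldo1 (chromosome 7, 140972112 to 140982881) encode transketolase and transaldolase, which move carbon units between sugar phosphates and link the pathway to glycolysis. Tkt was at 53.7 and 58.7 FPKM in Jak2WT GLUT1/3 WT clones, 50.7 and 52.1 in Jak2WT GLUT1/3 dKO clones, 57.5 and 52.7 in Jak2V617F GLUT1/3 WT clones and 40.8 and 46.7 in Jak2V617F GLUT1/3 dKO clones. The Jak2V617F GLUT1/3 dKO clones were the lowest, and the GLUT1/3 WT clones of the 2 backgrounds overlapped. Tkt fell by 0.33 (SE 0.0961) on the log2 scale on loss of GLUT1/3 in Jak2V617F cells (limma adjusted p = 0.0391), a call that held in 4 of 17 alternatives. The 13 that lost it included all but 1 of the 8 fits that each left out a library, the exception being Jak2V617F GLUT1/3 dKO clone 3 left out, with limma adjusted p from 0.0588 to 0.156 in the other 7. In Jak2WT cells the change was -0.12 (SE 0.0961, limma adjusted p = 0.420).

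Taldo1 was at 84.3 and 91.7 FPKM in Jak2WT GLUT1/3 WT clones, 74.8 and 78.7 in Jak2WT GLUT1/3 dKO clones, 69.5 and 59.0 in Jak2V617F GLUT1/3 WT clones and 89.1 and 69.2 in Jak2V617F GLUT1/3 dKO clones. The clones of the last group were the farthest apart of the 4 groups, and clone 3 lay within the range of the Jak2V617F GLUT1/3 WT clones. Taldo1 was lower in Jak2V617F than in Jak2WT GLUT1/3 WT clones (log2 difference -0.45, SE 0.136, limma adjusted p = 0.0426), a call lost in 6 of the 8 fits that each left out a library, those without a GLUT1/3 WT clone or a Jak2WT GLUT1/3 dKO clone (limma adjusted p = 0.0531 to 0.190). It was also lost without an expression filter (limma adjusted p = 0.115) and without the variance trend (limma adjusted p = 0.0552). On loss of GLUT1/3 it changed by -0.19 (limma adjusted p = 0.372) in Jak2WT cells and by 0.29 (limma adjusted p = 0.148) in Jak2V617F cells (SE 0.136 for each). The Jak2V617F difference passed by limma-voom (0.40, adjusted p = 0.0259), with libraries scaled to the same summed FPKM (0.38, limma adjusted p = 0.0471) and without Jak2V617F GLUT1/3 dKO clone 3 (0.47, limma adjusted p = 0.0398). The contrast of 0.48 (SE 0.192) did not pass the test (limma adjusted p = 0.143). The ratio of Tkt to Taldo1 in FPKM was 0.637 and 0.640 in Jak2WT GLUT1/3 WT clones, 0.678 and 0.662 in Jak2WT GLUT1/3 dKO, 0.827 and 0.894 in Jak2V617F GLUT1/3 WT and 0.458 and 0.676 in Jak2V617F GLUT1/3 dKO clones, highest in the Jak2V617F clones with intact transporters.

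On loss of GLUT1/3 both PRPP synthetases rose in Jak2V617F cells, and in Jak2WT cells their differences were positive without passing the test. Prps1 (chromosome X, 139357362 to 139376889) and Prps2 (chromosome X, 166129318 to 166165745) encode catalytic subunits of the synthetase, and both lie on chromosome X with G6pdx. Prps1 was at 53.4 and 62.1 FPKM in Jak2WT GLUT1/3 WT clones, 74.0 and 77.1 in Jak2WT GLUT1/3 dKO clones, 59.3 and 48.4 in Jak2V617F GLUT1/3 WT clones and 81.6 and 86.0 in Jak2V617F GLUT1/3 dKO clones. All 4 dKO clones were above all 4 GLUT1/3 WT clones, and the GLUT1/3 WT clones of the 2 backgrounds overlapped. Prps1 rose 1.56-fold in Jak2V617F cells, from 53.9 ± 7.7 to 83.8 ± 3.2 FPKM (mean ± SD, n = 2), by 0.64 (SE 0.118) in log2(FPKM + 1) (limma adjusted p = 0.00792), and kept this call in all 18 alternatives, the joining of its reads with those of Prps1l3 among them. In Jak2WT cells the difference was 0.39 (SE 0.118), an FPKM ratio of 1.31, and did not pass the test (limma adjusted p = 0.0703). It passed with limma-voom on the recovered reads (adjusted p = 0.0348) and without either Jak2V617F GLUT1/3 WT clone (limma adjusted p = 0.0490 without clone 1 and 0.0487 without clone 3). The contrast of the 2 backgrounds was 0.25 (SE 0.167, limma adjusted p = 0.353).

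Prps2 was at 27.7 and 29.4 FPKM in Jak2WT GLUT1/3 WT clones, 39.3 and 37.2 in Jak2WT GLUT1/3 dKO clones, 24.2 and 19.5 in Jak2V617F GLUT1/3 WT clones and 26.8 and 31.9 in Jak2V617F GLUT1/3 dKO clones. The dKO clones were above the GLUT1/3 WT clones in each background, and the Jak2V617F clones were below the Jak2WT clones of the same transporter genotype. Loss of GLUT1/3 gave the same difference in both backgrounds to 2 decimals, 0.41 (SE 0.124) in log2(FPKM + 1), with a contrast of 0.00 (95% interval -0.41 to 0.41). It passed the test in Jak2V617F cells (limma adjusted p = 0.0425) and not in Jak2WT cells (limma adjusted p = 0.0670). The Jak2V617F call held in 7 of 17 alternatives and was lost without 6 of the 8 libraries, all 4 Jak2WT ones and clone 3 of both Jak2V617F groups (limma adjusted p = 0.0671 to 0.172), and the Jak2WT difference passed without either Jak2V617F GLUT1/3 WT clone (limma adjusted p = 0.0491 without clone 1 and 0.0488 without clone 3). Between backgrounds Prps2 was at -0.38 among GLUT1/3 WT clones and -0.37 among dKO clones (SE 0.124 for each, limma adjusted p = 0.0564 and 0.0821). The difference among GLUT1/3 WT clones passed with libraries scaled to the same summed FPKM (-0.52, limma adjusted p = 0.00821), by limma-voom (-0.50, adjusted p = 0.00721) and without Jak2V617F GLUT1/3 WT clone 1 or either Jak2V617F GLUT1/3 dKO clone (limma adjusted p = 0.0348 to 0.0426), and that among dKO clones by limma-voom (-0.34, adjusted p = 0.0432).

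The share of Prps2 beside Prps1 was lower in the Jak2V617F background. The FPKM ratio of Prps2 to Prps1 was 0.518 and 0.473 in Jak2WT GLUT1/3 WT clones, 0.531 and 0.483 in Jak2WT GLUT1/3 dKO, 0.408 and 0.403 in Jak2V617F GLUT1/3 WT and 0.329 and 0.371 in Jak2V617F GLUT1/3 dKO clones. The 4 Jak2V617F libraries were below the 4 Jak2WT libraries. This ratio is a description and had no test.

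Prps1l3, the copy whose sequence is shown above, had nearly as many reads per length as Prps1 and moved with it. It was at 52.4 and 52.0 FPKM in Jak2WT GLUT1/3 WT clones, 79.6 and 74.0 in Jak2WT GLUT1/3 dKO, 57.1 and 43.0 in Jak2V617F GLUT1/3 WT and 71.4 and 65.8 in Jak2V617F GLUT1/3 dKO clones. It passed the test in both backgrounds, by 0.55 (SE 0.131, limma adjusted p = 0.0368) and 0.46 (SE 0.131, limma adjusted p = 0.0357), although every Jak2WT clone left out ended the first call (limma adjusted p up to 0.174) and the second held in 8 of 17 alternatives. How shared reads were counted is not given, so the values of the 2 genes are uncertain one by one to the extent of such reads. The recovered reads were whole for 100% of values. An exact copy elsewhere in the genome was found for 15 of 1818 windows of the Prps1 transcript and 0 of 3914 of the Prps1l3 transcript. With the reads of both genes together, Prps1 and Prps1l3 rose by 0.46 (limma adjusted p = 0.0418) in Jak2WT cells and by 0.56 (limma adjusted p = 0.0114) in Jak2V617F cells.

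The associated proteins Prpsap1 and Prpsap2, which bind the synthetase in one complex and restrain it, did not follow the catalytic subunits. Prpsap1 fell from 23.5 to 19.0 FPKM in Jak2WT cells, by 0.29 on the log2 scale (SE 0.0707, limma adjusted p = 0.0367), a call lost without any 1 of the 4 Jak2WT libraries (limma adjusted p up to 0.197). It fell from 24.2 to 17.0 FPKM in Jak2V617F cells, by 0.49 (SE 0.0707, limma adjusted p = 0.00299), and the latter call held in all 17 alternatives. Prpsap2 was at -0.09 and -0.25 (limma adjusted p = 0.546 and 0.0718). The 4 dKO libraries had more Prps1 and less Prpsap1 than the 4 GLUT1/3 WT libraries, with no overlap for either gene. How many of all genes tested separate the libraries in this way was not counted, so the separation is a description only.

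**Figure D2:**
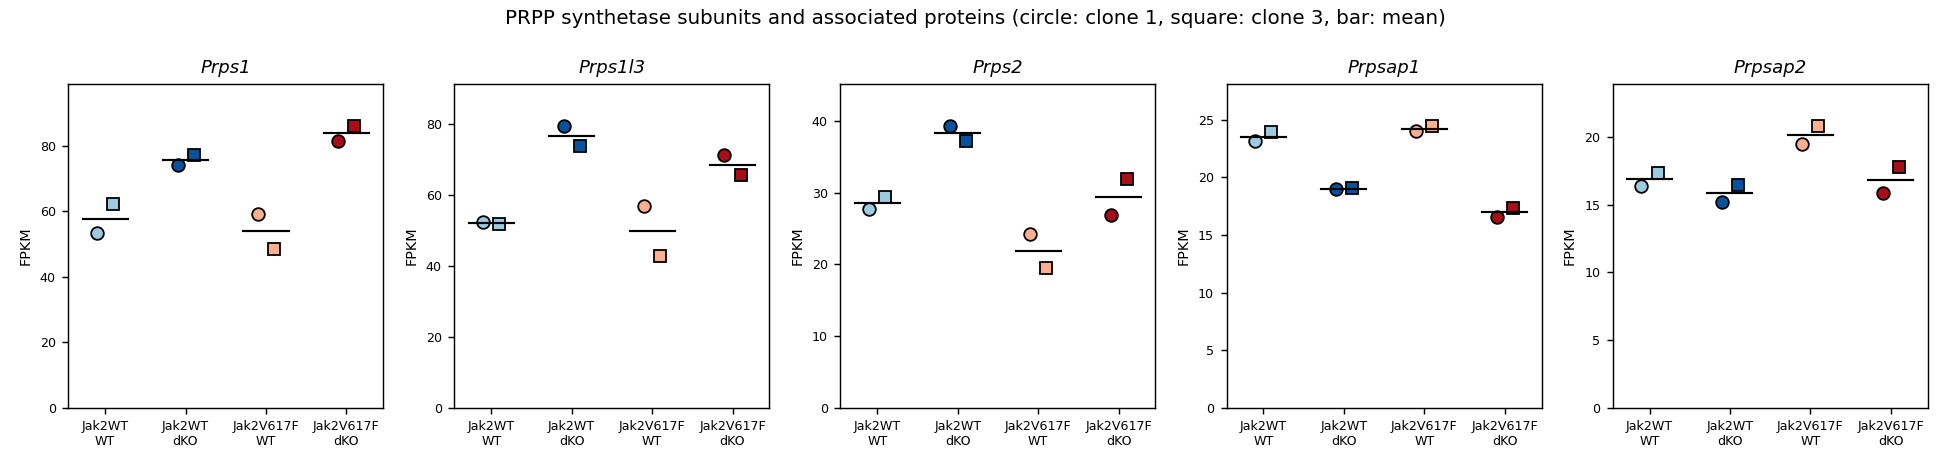
FPKM of the PRPP synthetase genes Prps1, Prps1l3 and Prps2 and of the associated proteins Prpsap1 and Prpsap2 (vertical axis, from 0, a scale per panel) in the 4 groups, with circles for clone 1, squares for clone 3 and bars for the mean. Prps1 and Prps1l3 were higher, and Prpsap1 lower, in all 4 dKO clones than in all 4 GLUT1/3 WT clones.

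In Jak2WT cells, 1 of the 9 members passed the test on loss of GLUT1/3, Pgd, which was lower, and 0 were higher. Of all genes tested, 7.62% were called higher and 6.06% lower. Without adjustment, limma gave p under 0.05 for 2 higher members, Prps1 and Prps2, and limma-voom on the recovered reads called these 2. Without either Jak2V617F GLUT1/3 WT clone the count of higher members was 2, and 7.20% and 7.25% of all genes were called higher (without clone 1 and clone 3). Without any 1 of the Jak2WT libraries the count of lower members was 0, beside 0.273% to 0.827% of all genes, so this 0 is near the background. The members' median difference was -0.02 in log2(FPKM + 1), beside 0.01 over all genes tested. Of 7 erythroid markers tested 2 were higher and 0 lower, of 3 megakaryocyte markers 2 were higher and of 5 myeloid markers 1 was lower, and their part was not tested. With libraries scaled to the same summed FPKM, all calls were 706 higher and 1378 lower, against 901 and 716.

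In Jak2V617F cells, 5 of the 9 members passed the test on loss of GLUT1/3. Rpia, Prps1 and Prps2 were higher, beside 13.7% of all genes tested. Rpe and Tkt were lower, beside 16.2% of all genes. The members' median was 0.01 and that of all genes -0.02. Of the 3 oxidative members 0 were called, at -0.12 to 0.01, beside 3 of 4 non-oxidative members and both synthetases. With 13.7% of all genes called higher and 16.2% lower, 0 of 3 is near the background, and the branches were not tested against each other. Of the calls beside it, that of Tkt held in 4 and that of Prps2 in 7 of 17 alternatives. Limma p-values under 0.05 without adjustment were found for 0 oxidative members, and limma-voom called 0. With libraries scaled to the same summed FPKM and by limma-voom, 4 members were called higher, with Taldo1 added, and 1 lower. A fit of only the 4 Jak2V617F libraries called 1 member, Prps1 (limma adjusted p = 0.0408). Calls over all genes fell in the same fit to 764 higher and 853 lower, against 1614 and 1919. Leaving out single libraries left 2 or 3 members called higher, beside 9.28% to 11.6% of all genes, and 0 to 2 called lower, beside 8.54% to 14.5%, with 0 lower without Jak2V617F GLUT1/3 WT clone 1 or 3 or Jak2V617F GLUT1/3 dKO clone 1. Scaling to the same summed FPKM gave 2189 higher and 1450 lower calls over all genes, against 1614 and 1919. The erythroid markers moved in the same comparison, with 5 of 7 tested higher and 1 lower, and of 5 myeloid markers tested 3 were lower and of 3 megakaryocyte markers 1 was higher. The part of these markers was not tested.

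Among the GLUT1/3 WT clones, Jak2V617F was compared with Jak2WT to describe the background before transporter loss. Pgd, Rpia and Taldo1 were lower and 0 members were higher, beside 14.9% of all genes called lower and 15.3% called higher. By limma without adjustment, p was under 0.05 for 1 higher member, Rpe (0.26, SE 0.0899, limma adjusted p = 0.0665), and limma-voom called 0 higher. Of the 9 differences 8 were negative, with a median of -0.26 beside 0.01 over all genes. With libraries scaled to the same summed FPKM, which moved the median of all genes by -0.13, the signs of all 9 were the same and 5 members were called lower, with Prps2 and G6pdx added (G6pdx -0.41, limma adjusted p = 0.0172), and the split of all calls moved from 1812 higher and 1765 lower to 1225 and 2932. The count of lower members was 0 without Jak2WT GLUT1/3 WT clone 1 or clone 3 and 1 without Jak2V617F GLUT1/3 WT clone 3, beside 7.38%, 6.18% and 10.2% of all genes. Of 7 erythroid markers tested, 5 were higher in Jak2V617F and 0 lower, of 3 megakaryocyte markers 2 were higher, and of 5 myeloid markers 2 were higher. The part of these markers was not tested.

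Among the dKO clones, 0 members passed the limma test in either direction, beside 7.12% of all genes called higher and 9.96% called lower. Limma without adjustment gave p under 0.05 for 0 higher and 3 lower members, Pgls (-0.26, SE 0.0838, limma adjusted p = 0.0725), Prps2 and Tkt (-0.23, SE 0.0961, limma adjusted p = 0.148), and limma-voom called 1 lower, Prps2. The Rpia and Taldo1 differences, called between backgrounds in GLUT1/3 WT clones, were -0.03 (95% interval -0.28 to 0.22) and 0.03 (95% interval -0.29 to 0.35) here. The Pgd difference, also called there, was -0.17 (95% interval -0.35 to 0.02, limma adjusted p = 0.198). With libraries scaled to the same summed FPKM, Rpia was at 0.01 and the median of all genes moved by 0.03, so that relative to this median it stayed at -0.0018. Of 7 erythroid markers tested 6 were higher in Jak2V617F and 0 lower, of 3 megakaryocyte markers 3 were higher and of 5 myeloid markers 2 were lower. The part of these markers was not tested.

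Whether loss of GLUT1/3 acted differently in the 2 backgrounds was tested as an interaction. By limma 0 members passed in either direction, beside 4.72% of all genes called positive and 5.91% called negative. Unadjusted limma p was under 0.05 for 2 positive members, Rpia and Taldo1, and 1 negative, Rpe. Limma-voom called 3 positive members, Rpia, Taldo1 and Pgd, and 0 negative, and so did scaling to the same summed FPKM, which moved the median of all genes by 0.16 and the split of all calls from 558 positive and 698 negative to 1179 and 394. Relative to that median, the differences were 0.53 for Rpia, 0.55 for Taldo1 and 0.27 for Pgd. By limma-voom the split of all calls was 1334 positive and 574 negative. Without Jak2V617F GLUT1/3 WT clone 1, 1 member was called, beside 201 positive and 155 negative calls over all genes, Rpia (0.63, limma adjusted p = 0.0464). A change called in Jak2V617F cells alone was therefore not shown to be particular to them.

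**Figure D3:**
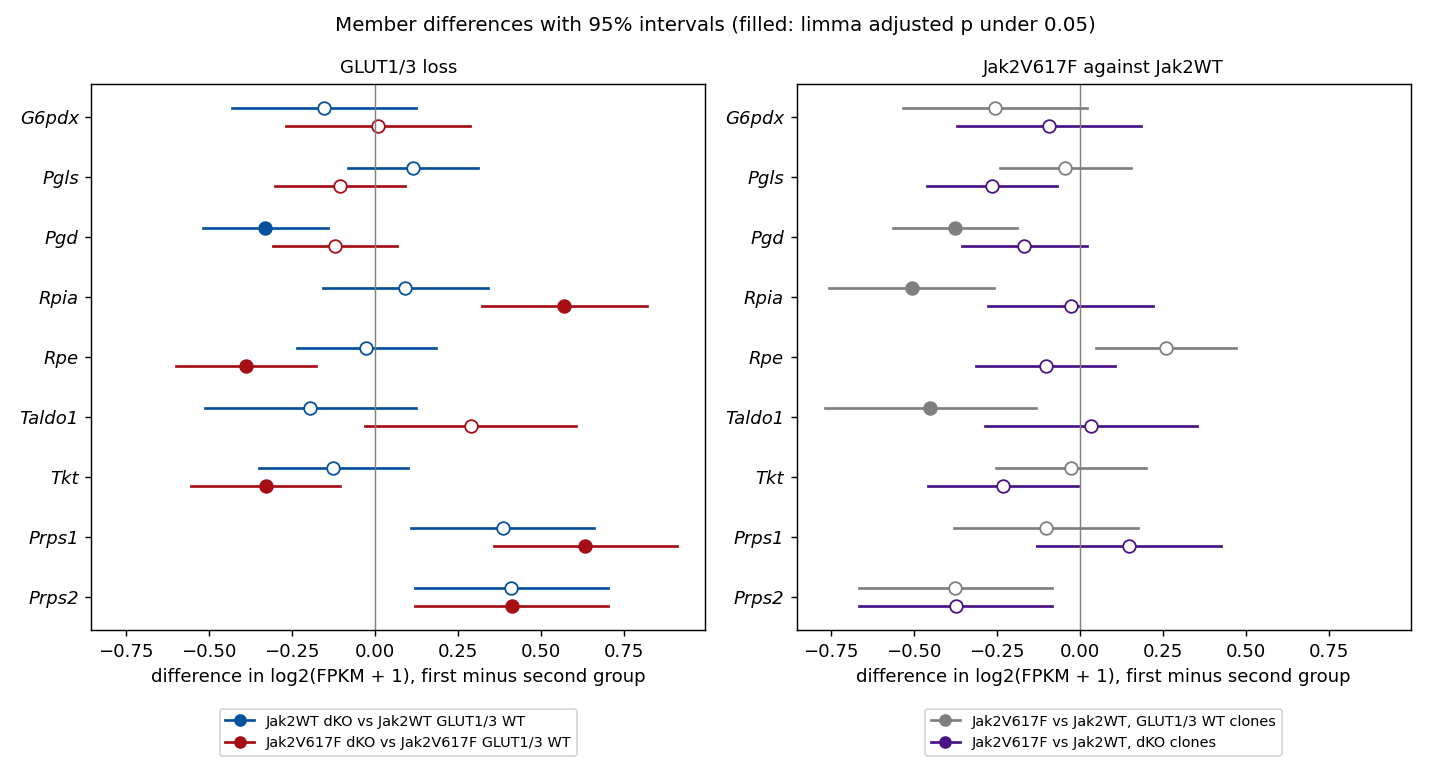
Differences in log2(FPKM + 1) (horizontal axis) of the 9 members with 95% intervals, on loss of GLUT1/3 in each Jak2 background (left) and for Jak2V617F against Jak2WT in GLUT1/3 WT and in dKO clones (right), filled where the limma adjusted p was under 0.05. Prps1 and Prps2 lay above 0 in both backgrounds on loss of GLUT1/3, and Pgd, Rpia and Taldo1 were the filled points on the right.

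At the border of the pathway, Pgm1 changed more on loss of GLUT1/3 than any of the 9 members. Of 15 other pathway genes listed, 11 were tested, and G6pd2, Tktl2 and Prps1l1 were listed at 0 in every library and Tktl1 had group means of at most 0.0954 FPKM. In Jak2WT cells, loss of GLUT1/3 raised 2 of the 11, Prps1l3 and Tigar, and lowered 2, Prpsap1 and Pgm1, with a median of -0.06 beside 0.01 over all genes. In Jak2V617F cells it raised 2, H6pd and Prps1l3, and lowered 3, Prpsap1, Pgm1 and Dera, with a median of -0.05 beside -0.02. Of all genes tested, 7.62% were called higher and 6.06% lower in Jak2WT cells, and 13.7% and 16.2% in Jak2V617F cells. Pgm1, which converts between the glucose phosphates of glycogen and of glycolysis and also acts on pentose phosphates, was at 70.7 and 71.9 FPKM in Jak2WT GLUT1/3 WT clones, 35.6 and 33.2 in Jak2WT GLUT1/3 dKO, 82.2 and 73.7 in Jak2V617F GLUT1/3 WT and 21.5 and 24.6 in Jak2V617F GLUT1/3 dKO clones. It fell in both, with log2 differences of -1.03 and -1.72 (SE 0.0957 for each, limma adjusted p = 0.00282 and 0.000354). Dera, the aldolase that breaks down deoxyribose phosphate, fell by 0.69 (SE 0.102, limma adjusted p = 0.00329) in Jak2V617F cells, from 12.4 to 7.37 FPKM. The Pgm1 and Dera calls held in all 17 alternatives. H6pd, which carries out the oxidative steps inside the endoplasmic reticulum, rose by 0.43 (SE 0.0914, limma adjusted p = 0.0131) in Jak2V617F cells, from 4.30 to 6.11 FPKM, and was at 0.32 (limma adjusted p = 0.0614) in Jak2WT cells, and its call was lost without Jak2V617F GLUT1/3 WT clone 3 (limma adjusted p = 0.0532). Tigar, a phosphatase that lowers fructose bisphosphate and favours the pathway, rose by 0.67 (SE 0.152, limma adjusted p = 0.0300) in Jak2WT cells from a low level, 1.32 to 2.68 FPKM, and was at 0.24 (limma adjusted p = 0.260) in Jak2V617F cells. The Tigar call was lost without any 1 of the Jak2WT libraries (limma adjusted p up to 0.173).

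Most of the tested glycolytic genes above the exit to the pathway and just beyond it were lower on loss of GLUT1/3. Of 12 upper glycolytic genes 10 were tested. Gapdh, among these 10, had group means of 6.54 to 12.7 FPKM, beside 358 to 907 FPKM for Aldoa, and how fully its reads were counted was not tested. On loss of GLUT1/3, 6 of the 10 were lower in Jak2WT cells, with a median of -0.48, beside 6.06% of all genes. In Jak2V617F cells 8 were lower, with a median of -0.96, beside 16.2% of all genes. The members' medians were -0.02 and 0.01, and the 2 lists were not tested against each other. None was higher in either background by limma, with 0 higher at an unadjusted p under 0.05 and 0 by limma-voom. Gpi1, whose product competes with G6pdx for glucose-6-phosphate, fell from 181 to 126 FPKM in Jak2WT cells (log2 difference -0.52, SE 0.107, limma adjusted p = 0.0235) and from 246 to 104 FPKM in Jak2V617F cells (log2 difference -1.24, SE 0.107, limma adjusted p = 0.000550). Hk2, which supplies glucose-6-phosphate, fell likewise (log2 differences -0.46 and -1.17, SE 0.0998 for each, limma adjusted p = 0.0279 and 0.000550). Of the 6 Jak2WT calls, those of Hk1, Hk2, Gpi1, Pfkl and Tpi1 were lost without any 1 of the Jak2WT libraries (limma adjusted p up to 0.192), and that of Pfkm held in all 17 alternatives. In Jak2V617F cells the Hk1 and Pfkp calls were lost without single Jak2V617F libraries, Hk1 without Jak2V617F GLUT1/3 WT clone 1 or dKO clone 1 and Pfkp without these or WT clone 3 (limma adjusted p up to 0.0581 and 0.0690). Without any expression filter, 1 of the upper glycolytic genes was called lower in Jak2WT cells, and without Jak2V617F GLUT1/3 dKO clone 1 there was 1 called higher in Jak2V617F cells.

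A list of NADP- and folate-linked genes outside the pathway held genes that make NADPH and genes that do not. Of 14 listed 9 were tested. In Jak2V617F cells 6 were lower on loss of GLUT1/3, Me2, Idh1, Idh2, Mthfd2, Mthfd1l and Nadk2, and 1, Mthfd1, higher, with a median of -0.57, beside 16.2% of all genes called lower and 13.7% higher. In Jak2WT cells 2 were lower and 0 higher, with a median of -0.04, where limma gave 1 higher at an unadjusted p under 0.05 and limma-voom called 0 higher. Over all genes 6.06% were called lower and 7.62% higher in Jak2WT cells. Idh1, the cytosolic isocitrate dehydrogenase that yields NADPH, fell in both backgrounds (log2 differences -0.97 in Jak2WT and -0.78 in Jak2V617F cells, SE 0.135 for each, limma adjusted p = 0.00780 and 0.00586), and Me2, a mitochondrial malic enzyme that works mainly with NAD, did too (-0.53 and -0.64, SE 0.0931 for each, limma adjusted p = 0.0149 and 0.00304). Mthfd1l is a folate ligase and Nadk2 makes NADP, so neither yields NADPH itself. Mthfd2, of mitochondrial folate metabolism, fell by 0.94 in Jak2V617F cells (SE 0.0898, limma adjusted p = 0.000713). In Jak2WT cells the Me2 call was lost without any 1 of the Jak2WT libraries and the Idh1 call without either Jak2WT GLUT1/3 WT clone (limma adjusted p up to 0.101 and 0.0623). In Jak2V617F cells the Mthfd1 call was lost without clone 3 of either group (limma adjusted p up to 0.0828) and the Mthfd1l call without Jak2V617F GLUT1/3 WT clone 1 (limma adjusted p = 0.0513).

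Among enzymes that use PRPP, calls on loss of GLUT1/3 went both ways in Jak2V617F cells, as calls over all genes did. Of all genes tested, 13.7% were called higher and 16.2% lower there, and 7.62% and 6.06% in Jak2WT cells. Of the 8 such enzymes found in these data, 7 were tested. In Jak2V617F cells Umps was higher and Hprt and Nampt were lower on loss of GLUT1/3, and in Jak2WT cells Umps alone was called, higher, with 0 lower by limma, 2 lower at an unadjusted p under 0.05 and 2 lower by limma-voom. Umps, which attaches orotate to PRPP to make UMP, was at 26.1 and 28.1 FPKM in Jak2WT GLUT1/3 WT clones, 35.8 and 38.0 in Jak2WT GLUT1/3 dKO, 22.5 and 18.8 in Jak2V617F GLUT1/3 WT and 48.2 and 43.2 in Jak2V617F GLUT1/3 dKO clones. All 4 dKO clones were above all 4 GLUT1/3 WT clones, the order that Prps1 had, and the share of all genes with this order was not counted. It rose by 0.43 (SE 0.106, limma adjusted p = 0.0391) in Jak2WT cells, a call lost without any 1 of the 4 Jak2WT libraries (limma adjusted p up to 0.202), and by 1.11 (SE 0.106, limma adjusted p = 0.000713) in Jak2V617F cells, a call that held in all 17 alternatives. Hprt, which salvages purines with PRPP, fell from 210.2 to 148 FPKM and Nampt, of NAD synthesis, from 36.1 to 18.1 FPKM in Jak2V617F cells (limma adjusted p = 0.0119 and 0.000904), and the Hprt call was lost without Jak2V617F GLUT1/3 WT clone 1 (limma adjusted p = 0.0601).

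G6pdx, Pgd, Taldo1 and Tkt are also known targets of the antioxidant factor NRF2, so 11 of its targets outside the pathway were listed beside them. Calls among them went both ways in both backgrounds, as calls over all genes did. Of all genes tested, 7.62% were called higher and 6.06% lower in Jak2WT cells, and 13.7% and 16.2% in Jak2V617F cells. In Jak2V617F cells Nqo1, Gclc and Txnrd1 were higher and Hmox1, Slc7a11 and Slc48a1 lower on loss of GLUT1/3, with a median of -0.11. In Jak2WT cells Nqo1 and Gclc were higher and Hmox1 lower, with a median of 0.14. Nqo1 rose by 1.00 (SE 0.163, limma adjusted p = 0.0122) in Jak2WT and 1.30 (SE 0.163, limma adjusted p = 0.00178) in Jak2V617F cells, and Hmox1 fell (log2 differences -0.92 and -1.77, SE 0.119 for each, limma adjusted p = 0.00691 and 0.000379). In Jak2WT cells the Nqo1 and Gclc calls were lost without any 1 of the Jak2WT libraries and the Hmox1 call without either Jak2WT GLUT1/3 WT clone (limma adjusted p up to 0.140), and in Jak2V617F cells the Gclc call without Jak2V617F GLUT1/3 WT clone 3 (limma adjusted p = 0.0549). The Slc48a1 call was lost without Jak2V617F GLUT1/3 WT clone 1 (limma adjusted p = 0.0584) or Jak2V617F GLUT1/3 dKO clone 3 (limma adjusted p = 0.0669). Of the 4 pathway members named, the calls on loss of GLUT1/3 were Pgd in Jak2WT cells and Tkt in Jak2V617F cells, both lower.

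**Figure D4:**
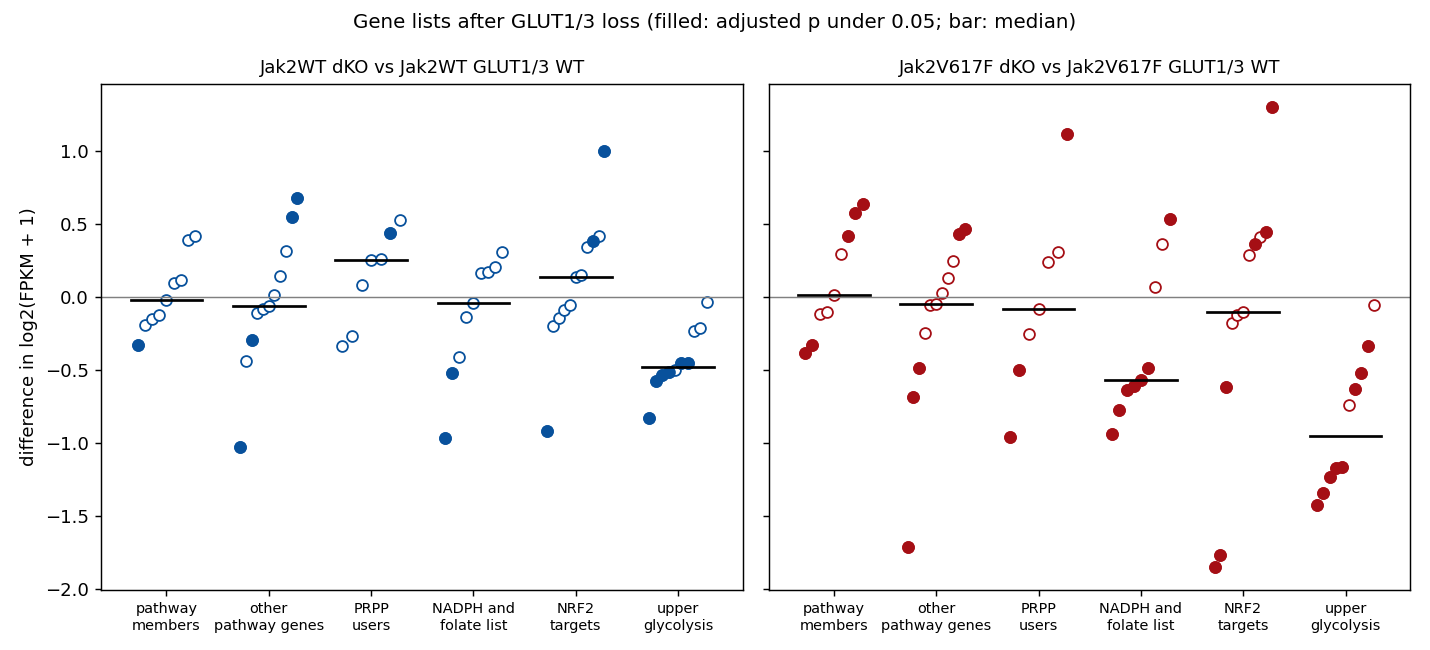
Differences in log2(FPKM + 1) on loss of GLUT1/3 (vertical axis) for every tested gene of 6 lists (horizontal axis), in Jak2WT (left) and Jak2V617F (right) cells, filled where the limma adjusted p was under 0.05, with bars at list medians. The members' medians lay at -0.02 and 0.01, and those of upper glycolysis at -0.48 and -0.96.

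Across the 8 libraries, the likeness of 2 patterns was measured as the root mean square difference of log2(FPKM + 1) after each gene was centred on its own mean. Within the pathway the closest pair was G6pdx and Pgd (0.11) and the farthest Rpe and Prps2 (0.40). Among all genes tested, the nearest to Prps1 were Jpt2, Ormdl2 and Hmgb3 (0.04 to 0.06), beside its own spread of 0.28. The nearest to Prps2 were Lsm6, Entpd7 and Sppl2b (0.06 to 0.07), and to Rpia Atpaf1, Prpf31 and Cnp (0.05 to 0.06). Those nearest to Rpe were Atp6v1c1, Naa30 and Glmn, to Pgd Klhl25, Ube4b and Pcm1, to Tkt Psmb4, Spcs1 and Extl2, and to Taldo1 Arl6, Rfc1 and Nsd2, at 0.03 to 0.07. With 8 libraries in 4 groups and 11818 genes to choose from, these names are a description of likeness in these libraries only.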

How the data were processed

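Poly-A RNA of 8 clones was sequenced as paired reads of 150 bases. Per the labels and the methods, the authors' provider cleaned reads with fastp 1.0.1, aligned them to mm39 with HISAT2 2.2.1 and counted genes with featureCounts 2.0.6. The deposited values are FPKM. The annotation version, strand setting and handling of reads with several matches are not given in the sources used here. Median-ratio factors of the deposited FPKM columns were 1 in all 8 libraries, and FPKM multiplied by gene length fell on whole steps for 100% of values (tolerance 0.01), which gave the reads.

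Genes with at least 2 libraries at FPKM 1 or above were tested (11818) on log2(FPKM + 1), a scale that understates changes of low genes, with limma 3.58.1 in R 4.3.3 using a mean per group, a variance trend and Benjamini-Hochberg adjustment at 0.05, in 5 comparisons. The fit had 4 residual and 3.34 prior degrees of freedom, and p-values measure the spread between clones. The fit was also run on simulated data, and the outcome is not reported here. Coding sequences came from the GRCm39 genome and its annotation. Members were taken by gene symbol, and both they and the lists were chosen with earlier results of these data known. Named genes are the members, the listed genes, Slc2a1, Slc2a3, Jak2 and, for each member called in a comparison, the 3 genes nearest in pattern. Where 2 rows shared a symbol (Aldoa, Nnt), the row with the higher mean was used. Marker lists cover myeloid, erythroid, megakaryocyte and lymphoid genes, and the 4 lymphoid markers summed to at most 0.708 FPKM and the 5 megakaryocyte markers to 63.2 to 222 FPKM per library. Alternatives were a pseudocount of 0.1, 2 other expression filters, an empirical Bayes step without trend or robust, scaling to the same summed FPKM, fits restricted to the groups compared, limma-voom on these reads, a replicate block and fits that each left out a library. Scaling by median ratio, with its factors of 1, repeated the analysis and is not counted as an alternative. Joining the reads of Prps1 and Prps1l3 was added after the data were seen. Some items of the design and of the marker lists are not reported here.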

Additional observations from a re-analysis of the deposited data

Results flagged for a closer look

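By the interaction test, 11 of 48 tested genes of the 5 metabolic and NRF2 target lists differed in their response to loss of GLUT1/3 between the 2 Jak2 backgrounds (limma adjusted p under 0.05), 1 positive and 10 negative. Over all genes 4.72% were called positive and 5.91% negative, so 0 of 9 members is near the background. The lists were chosen with earlier results of these data known, so their share beside that of all genes is a description only. Of the cell type markers, 2 of 5 myeloid and 1 of 3 megakaryocyte markers tested had a negative call. Each value is the log2 change in Jak2V617F cells minus that in Jak2WT cells. Among the other genes of the pathway it was -0.69 for Pgm1 (limma adjusted p = 0.0267) and -0.62 for Dera (limma adjusted p = 0.0383). Among the enzymes that use PRPP it was 0.68 for Umps and -0.62 for Nampt (limma adjusted p = 0.0349 and 0.0360). For Mthfd2, of folate metabolism, it was -1.10 (limma adjusted p = 0.00881). In upper glycolysis it was -0.71 for Hk2, -0.72 for Gpi1, -0.89 for Pfkl and -0.85 for Aldoa (limma adjusted p = 0.0188 to 0.0397). For Hmox1 and Slc7a11 it was -0.85 and -1.70 (limma adjusted p = 0.0270 and 0.0194). The positive value was that of Umps. None of the 11 calls held in all 16 alternatives. The number of alternatives that ended a call was 2 for Mthfd2, 5 for Pfkl and Slc7a11, 6 for Pgm1 and Hmox1, 7 for Gpi1, 8 for Umps and Hk2, 9 for Dera and Aldoa and 10 for Nampt, with limma adjusted p up to 0.164. Each of the 11 lost its call without Jak2WT GLUT1/3 WT clone 1 and without its clone 3, as nearly all genes did, with calls over all genes falling from 558 positive and 698 negative to 25 and 38 without clone 1 and to 1 and 3 without clone 3. The 11 values kept their sign in every alternative, and that of Mthfd2 ran from -1.20 to -0.91. Groups of 2 clones are too small for a test of single outlying clones.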

How the results depend on the processing

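Counts of called members moved with the settings. On loss of GLUT1/3 in Jak2WT cells, members called higher numbered 2 by limma-voom and 1 in a fit of only the groups compared, against 0, and members called lower numbered 0 without an expression filter and 0 without the variance trend, against 1. Over all genes these fits called 1018 and 1145 higher, against 901, and 312 and 648 lower, against 716. Without a filter 25788 genes were tested. In Jak2V617F cells, 1 member was called higher in a fit of only the groups compared and 4 with libraries scaled to the same summed FPKM and by limma-voom, against 3, and 1 was called lower without a filter, without the trend, with libraries scaled to the same summed FPKM and by limma-voom, and 0 in a fit of only the groups compared, against 2. Prps2 lost its higher call without a filter and without the trend. Over all genes, calls higher and lower were 764 and 853 in a fit of only the groups compared, 2189 and 1450 with scaling and 2353 and 1613 by limma-voom. They were 1244 and 1354 without a filter and 1549 and 1817 without the trend, against 1614 and 1919. Between backgrounds among GLUT1/3 WT clones, scaling to the same summed FPKM and limma-voom each called 5 lower and the fits without an expression filter, without the trend and with a replicate block 2, against 3. Over all genes these fits called 2932, 2659, 1332, 1738 and 1647 lower, in the order named, against 1765. Among dKO clones limma-voom called 1 lower, against 0, and over all genes 1336 lower, against 1177. For the interaction, scaling and limma-voom each called 3 positive, against 0. Over all genes they called 1179 and 1334 positive, against 558, and 394 and 574 negative, against 698. Leaving out 1 library gave 0 to 2 higher and 0 to 1 lower in Jak2WT cells, 2 to 3 higher and 0 to 2 lower in Jak2V617F cells, 0 to 4 lower among GLUT1/3 WT clones and 0 to 1 positive for the interaction. Over all genes the same fits gave 74 to 1085 higher and 32 to 905 lower, 1086 to 1361 higher and 1002 to 1691 lower, 725 to 1942 lower and 1 to 505 positive. The cause was not tested, except that a fit of only the groups compared rests on 4 libraries in place of 8.

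Rpia among dKO clones, at -0.03, was 0.016 by limma-voom and 0.0079 with scaling, which moved the median of all genes by 0.033 and left Rpia at -0.0018 relative to it. Other small differences changed sign with 1 library left out, and the ranges that crossed 0 were -0.10 to 0.052 for Rpe in Jak2WT cells, -0.13 to 0.15 for G6pdx in Jak2V617F cells, -0.13 to 0.042 for Pgls, -0.090 to 0.036 for Tkt and -0.25 to 0.041 for Prps1 between backgrounds among GLUT1/3 WT clones, -0.15 to 0.21 for Taldo1 among dKO clones and -0.15 to 0.15 for Prps2 in the interaction.

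The clone numbers 1 and 3 recur in every group but name different clones, so a paired analysis has no basis in the design. Correlations of same-numbered clones' deviations ran from -0.25 to 0.15. A fit with a replicate block on the clone number called 0 members lower in Jak2WT cells (Pgd, limma adjusted p = 0.0622) and 1 lower in Jak2V617F cells (without Tkt, limma adjusted p = 0.0541). It also ended the calls of Prps2 in Jak2V617F cells (limma adjusted p = 0.0628) and of Taldo1 among GLUT1/3 WT clones (limma adjusted p = 0.0501). Counting error was at most 3.26% of a member's value in a library, and each group rests on 2 clones.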
